A study of Mus musculus with 6 samples.

Results

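The genes described here encode the subunits of the proteasome, its activators and inhibitor, and the chaperones that assemble it. They were taken as every protein-coding gene whose symbol starts with Psma, Psmb, Psmc, Psmd, Psme, Psmf or Psmg followed by a number, which gave 47 of the 15634 genes listed. Within them, 5 genes were set against the rest: Psmb8, Psmb9 and Psmb10, the catalytic subunits of the immunoproteasome, and Psme1 and Psme2, the PA28 activator. The other 42 are called constitutive members below, although they also hold the assembly chaperones. Psma8 and Psmb11, a testis and a thymus subunit, were not among the listed genes.

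The samples were 6 RNA libraries of wild-type C57BL/6J mouse bone marrow-derived mesenchymal stem cells (MSCs), kept in α-MEM medium that held 15% fetal bovine serum. The 3 TNF libraries came from cells given TNF-α, an inflammatory cytokine, at 10 ng/mL for 24 h, and the 3 Control libraries from unstimulated cells carrying the same 24 h label. Total RNA was read with the SMART-Seq Stranded Kit. Nothing in the labels tells whether the 3 libraries of a group were cultured separately or came from different mice. The p-values below therefore cover only library-to-library spread, part or all of which may be technical.

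The proteasome degrades proteins tagged with ubiquitin. Its 20S core stacks rings of alpha subunits, which gate the entry, around rings of beta subunits, a few of which cut the chain. The 19S particle caps the core, recognises and unfolds tagged proteins with its ATPase ring, and removes their ubiquitin. Cytokines such as interferon-γ are known to replace the cutting subunits Psmb5, Psmb6 and Psmb7 with Psmb8, Psmb9 and Psmb10, and to raise PA28, a cap that opens the core without ubiquitin. The immunoproteasome is known for making peptides that fit MHC class I molecules.

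The start regions of the 5 genes are shown because these genes moved most as a group. Each window runs from 250 bases before to 50 bases after the gene's RefSeq start on GRCm38.p6, 5′ to 3′ on the gene's strand. Capitals mark matches to the cores of 3 motifs that inflammatory factors are known to read, searched on both strands: GAAANNGAAA (the interferon-stimulated response element, ISRE), TTCNNNGAA (the gamma-activated sequence, GAS) and GGGNNTTTCC (an NF-κB site). The authors used GRCm39, and these coordinates belong to the older build.
Psmb8 (chr17:34197945-34198244, + strand): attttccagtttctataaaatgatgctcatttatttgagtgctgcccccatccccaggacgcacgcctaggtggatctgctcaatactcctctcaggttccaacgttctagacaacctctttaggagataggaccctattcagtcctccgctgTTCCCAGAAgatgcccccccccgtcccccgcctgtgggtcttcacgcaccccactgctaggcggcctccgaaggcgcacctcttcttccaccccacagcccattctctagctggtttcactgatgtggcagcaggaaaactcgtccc
Psmb9 (chr17:34187281-34187580, - strand): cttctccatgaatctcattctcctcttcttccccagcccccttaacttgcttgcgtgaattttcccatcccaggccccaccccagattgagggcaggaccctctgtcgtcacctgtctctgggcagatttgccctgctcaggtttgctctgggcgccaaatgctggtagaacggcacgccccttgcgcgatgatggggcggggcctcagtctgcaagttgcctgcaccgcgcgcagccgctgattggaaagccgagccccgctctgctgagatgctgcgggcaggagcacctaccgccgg
Psmb10 (chr8:105938343-105938642, - strand): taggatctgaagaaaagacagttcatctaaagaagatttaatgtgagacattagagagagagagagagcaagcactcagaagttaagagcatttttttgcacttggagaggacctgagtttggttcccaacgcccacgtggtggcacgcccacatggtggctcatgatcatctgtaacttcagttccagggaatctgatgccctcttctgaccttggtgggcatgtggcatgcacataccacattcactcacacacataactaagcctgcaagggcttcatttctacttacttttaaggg
Psme1 (chr14:55578244-55578543, + strand): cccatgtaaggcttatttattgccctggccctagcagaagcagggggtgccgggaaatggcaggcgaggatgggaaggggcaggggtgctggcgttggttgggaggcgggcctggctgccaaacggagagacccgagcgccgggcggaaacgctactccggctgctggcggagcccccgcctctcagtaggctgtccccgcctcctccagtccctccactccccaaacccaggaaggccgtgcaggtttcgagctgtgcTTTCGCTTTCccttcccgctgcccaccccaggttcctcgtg
Psme2 (chr14:55591052-55591351, - strand): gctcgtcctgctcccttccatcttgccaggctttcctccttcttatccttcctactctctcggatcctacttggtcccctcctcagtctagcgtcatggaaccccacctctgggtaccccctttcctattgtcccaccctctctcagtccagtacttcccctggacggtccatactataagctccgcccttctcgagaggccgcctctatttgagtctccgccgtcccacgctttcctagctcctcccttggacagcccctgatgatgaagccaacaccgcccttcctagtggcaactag

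In these letters, Psmb8 held a GAS core, TTCCCAGAA, whose first base lies 97 bases before the start, and Psme1 held an ISRE core, TTTCGCTTTC on the gene's strand, that begins 9 bases after it. The windows of Psmb9 and Psmb10 held none of the 3 motifs, and neither did any window of Psme2, not all of which are shown. Of the 47 members, 40 had a window in the RefSeq table, with 43 windows in all. A member was counted if any of its windows matched, while the shares of all windows are per window. The ISRE core was in 5 of these 40 (Psme1, Psmb3, Psmd4, Psmd9 and Psmg4), or 12.5%, against 3.44% of all 32851 windows. The GAS core was in 3 (Psmb8, Psmd2 and Psmg1), or 7.5%, against 8.3% of all windows, and the NF-κB core was in none, against 1.63%. A further core, TGACNNNGC, the antioxidant response element read by Nfe2l1 and Nfe2l2, was in 6 members, all constitutive (Psmb5, Psmb6, Psmc6, Psmd9, Psmd12 and Psme4), against 12.4% of all windows. No match in a member overlapped another. A match describes the letters only and is no evidence of binding.

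Library totals ran from 45629973 to 77142418 counts, and proteasome genes took 0.52% to 0.866% of them. Every member was well covered: the lowest count of any member in any library was 222, for Psme2b. TNF 2 stood apart, with 19.4% of its counts on 18S ribosomal RNA against 1.1% to 3.55% in the other libraries. Control 2 stood apart less, with 4.45% of its counts on mitochondrial messenger RNAs against 1.59% to 2.16% elsewhere. For the proteasome genes, counts that moved by over 1.5 times without either library are also given without it, as are changed calls of named members. Over all 15547 genes tested, 2489 were called higher in TNF and 2550 lower at an adjusted p under 0.05 (quasi-likelihood F test of edgeR, adjusted by Benjamini-Hochberg), so 49.4% of calls were higher. Scaled to raw library totals, in which the 18S counts of TNF 2 are included, 38.5% were.

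The labelled cell type was checked against its markers. All 13 MSC markers were measured, led by Col1a1 and Col1a2, and their summed level was 19593 to 24764 CPM (counts scaled to the library's size) in Control and 12696 to 13313 CPM in TNF. Col1a1 and Col1a2 made up most of that sum, at means of 8204 and 9647 CPM in Control and 3938 and 5865 CPM in TNF. Of the 13 markers, 3 (23.1%, against 16.0% of all genes) were called higher: Cd44, Pdgfra and Lepr (log2 fold changes 1.27, 1.03 and 1.68). Lepr was at only 0.28 to 0.67 CPM in Control. Another 3 (23.1%, against 16.4% of all genes) were called lower: Col1a1, Col1a2 and Thy1 (-1.06, -0.72 and -0.92). Cxcl12 was the most abundant one not called. All 21 macrophage markers were measured too, with Lyz2 at a mean of 1334 CPM in Control and 925.0 CPM in TNF and Ptprc, the pan-leukocyte antigen, at 31.2 and 36.9 CPM. None of the 9 lymphocyte markers was listed, and of 7 endothelial markers only Kdr and Vwf were, at 1.13 to 2.16 CPM summed. Both were called lower in TNF, against 16.4% of all genes. Every listed gene had at least 10 counts in 3 libraries. Kdr, with 16 to 18 counts in Control and 3 to 6 in TNF, was thus listed only through Control, and its call carries no weight. Macrophage marker RNA was thus present in all 6 libraries beside that of MSCs. In such bulk samples, a change in the number of cells of a type and a change in RNA per cell cannot be told apart.

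Across the proteasome genes, the immunoproteasome rose strongly in TNF and many other subunits rose by small amounts. Of the 47 members, 27 (57.4%) were called higher, against 16.0% of all tested genes, and 0 were called lower, against 16.4% of all genes. The higher count was 14 without TNF 1 (11.0% of all genes then) and 17 without Control 1 (12.5% of all genes then). With raw library totals it was 9 (19.1%, against 10.4% of all genes). The median log2 fold change, TNF over Control, was 0.34 over the members and -0.005 over all genes. By edgeR 0 members were lower even at an unadjusted p under 0.05, and DESeq2 and limma-voom also called 0 lower. The log2 fold change was positive for 44 members. The 3 with a negative value, Psmc3, Psmd13 and Psmf1, lay between -0.14 and -0.12, and none of them was called. Without Control 2 or without TNF 2, the value of Psmd13 was no longer negative. In 33 members every TNF library lay above every Control library, which was so for 24.0% of all genes, and in 0 every TNF library lay below, against 24.7%. In the remaining 14 the groups overlapped.

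**Figure D1:**
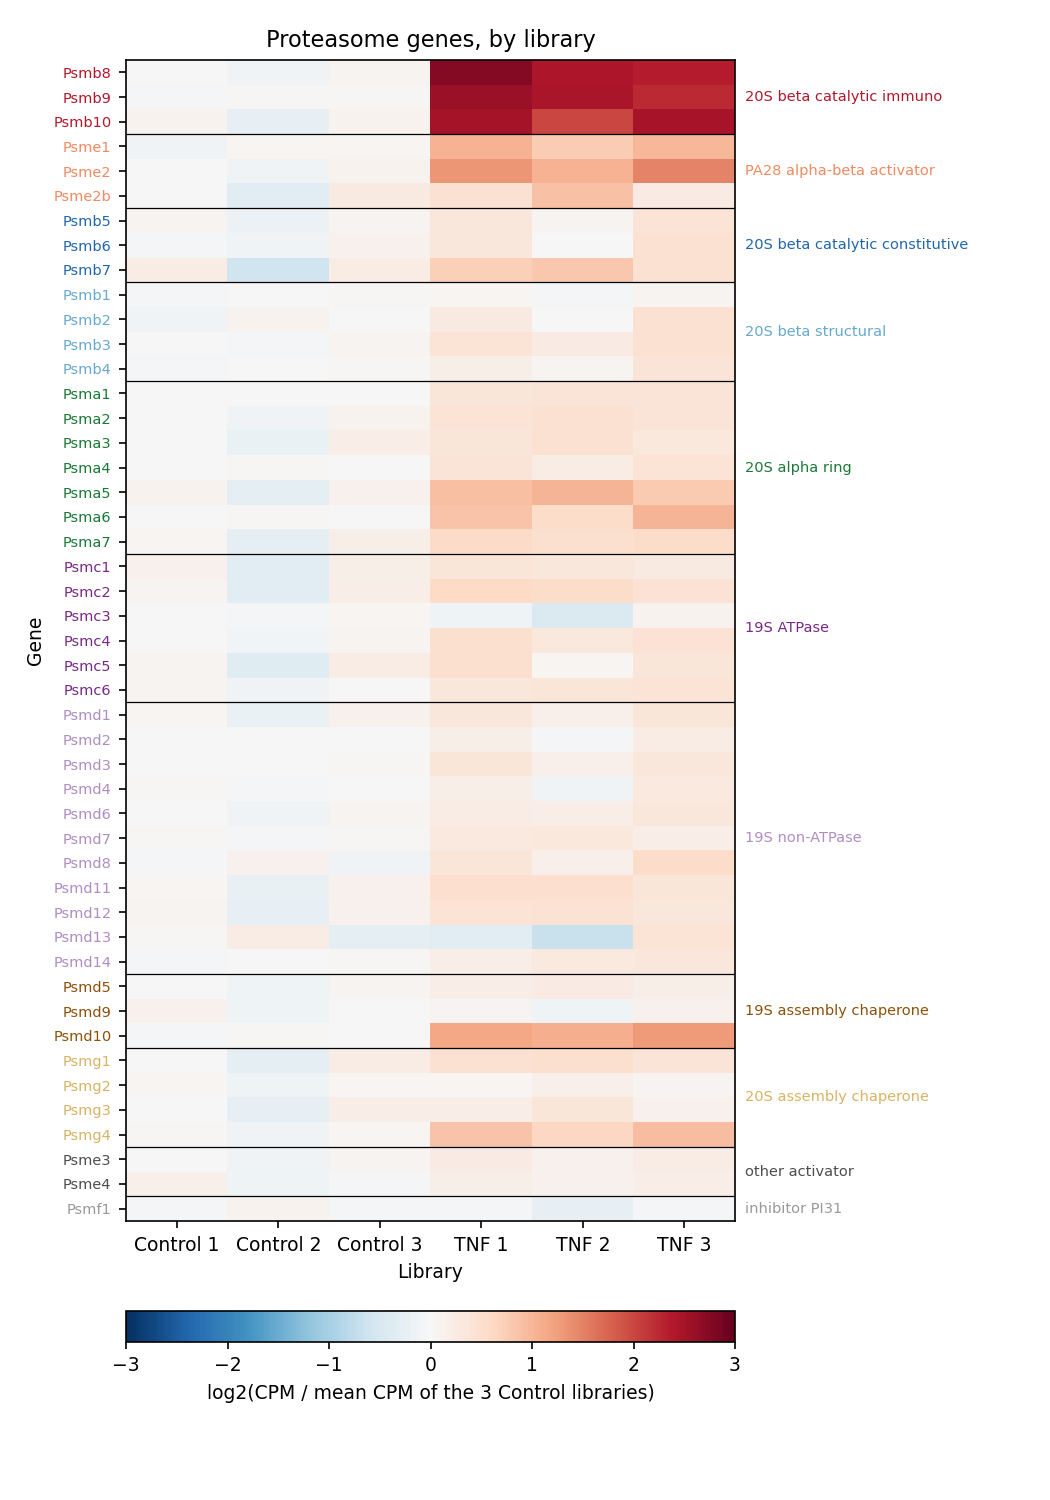
Level of each of the 47 proteasome genes (rows, grouped by role) in each library (columns), as log2 of its CPM over the mean CPM of the 3 Control libraries; red is above and blue below that mean. Psmb8, Psmb9 and Psmb10 are dark red in all 3 TNF libraries, Psme1, Psme2 and Psmd10 are the next, and most other genes are pale red, with fewer of them so in TNF 2.

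All 3 catalytic subunits of the immunoproteasome rose by more than any other member. Psmb8, the β5i subunit with chymotrypsin-like activity, was at 40.7, 37.9 and 43.2 CPM in the Control libraries and at 275.2, 218.7 and 208.8 CPM in the TNF libraries. The lowest TNF library was far above the highest Control library. Its log2 fold change was 2.53 ± 0.13 (SE, n = 3 per group), a 5.77-fold rise, with an adjusted p of 1.89e-06 by edgeR.

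Psmb9, the β1i subunit, was at 6.45, 6.93 and 6.91 CPM in Control and at 41.0, 36.9 and 31.9 CPM in TNF. The groups lay far apart, and the Control values were nearly even. The log2 fold change was 2.44 ± 0.11 (SE), a 5.41-fold rise (adjusted p = 1.31e-06, edgeR). Psmb10, the β2i subunit, was at 79.5, 62.5 and 80.0 CPM in Control and at 415.3, 298.4 and 412.9 CPM in TNF. Control 2 and TNF 2 were the low libraries of their groups, and the groups did not overlap. It rose 5.08-fold, a log2 fold change of 2.34 ± 0.16 (SE), with an adjusted p of 1.2e-05 by edgeR.

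The PA28 genes rose less. Psme1, PA28α, was at 104.4, 117.0 and 117.1 CPM in Control and at 231.5, 192.6 and 224.3 CPM in TNF. The log2 fold change was 0.94 ± 0.10 (SE), a 1.92-fold rise (adjusted p = 0.000167, edgeR). Psme2, PA28β, was at 189.4, 178.9 and 205.1 CPM in Control and at 476.7, 394.2 and 534.7 CPM in TNF. For both genes TNF 2 was the lowest TNF library and still stood above every Control library. Psme2 rose 2.45-fold, a log2 fold change of 1.29 ± 0.13 (SE), with an adjusted p of 0.000106 by edgeR.

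Psme2b, a near copy of Psme2, matched its transcript at 99.4% of 794 bases (GENCODE M21), so reads could be divided between them and both values are uncertain to that extent. It was at 3.73, 2.94 and 4.53 CPM in Control and at 5.15, 6.84 and 4.39 CPM in TNF. The groups overlapped, and it was not called (log2 fold change 0.55, adjusted p = 0.0741, edgeR). It was called higher by DESeq2, and by edgeR without Control 3 or without TNF 3. It held 222 to 268 counts per library, against 11271 to 30665 for Psme2. The other pairs compared were less alike: the longest match of Psmb8 with Psmb5 was 70.4% identical, that of Psmb9 with Psmb6 66.9% and that of Psmb10 with Psmb7 67.2%.

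The 5 genes were called higher in all 23 alternative settings tried, which included other scalings, other tests and the removal of each library in turn. Over these settings the log2 fold change ran from 2.40 to 2.60 for Psmb8, from 2.31 to 2.53 for Psmb9, from 2.24 to 2.48 for Psmb10, from 0.87 to 1.05 for Psme1 and from 1.19 to 1.40 for Psme2. Macrophage markers were measured beside them. Their summed level was 2724 to 4089 CPM in Control and 2603 to 2702 CPM in TNF, the highest value being Control 2, and no marker was at 0. Among the 21 markers 4 (19%, against 16.0% of all genes) were higher in TNF, with the smallest adjusted p for Cybb, the oxidase subunit (log2 fold change 2.26), Cd14 (1.13) and Spi1 (0.42), and 8 (38.1%, against 16.4% of all genes) were lower, with the smallest adjusted p for Cx3cr1 (-1.95), C1qc (-1.46) and Mrc1 (-1.33). The part of macrophage RNA in the rise of the 5 genes was not tested.

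**Figure D2:**
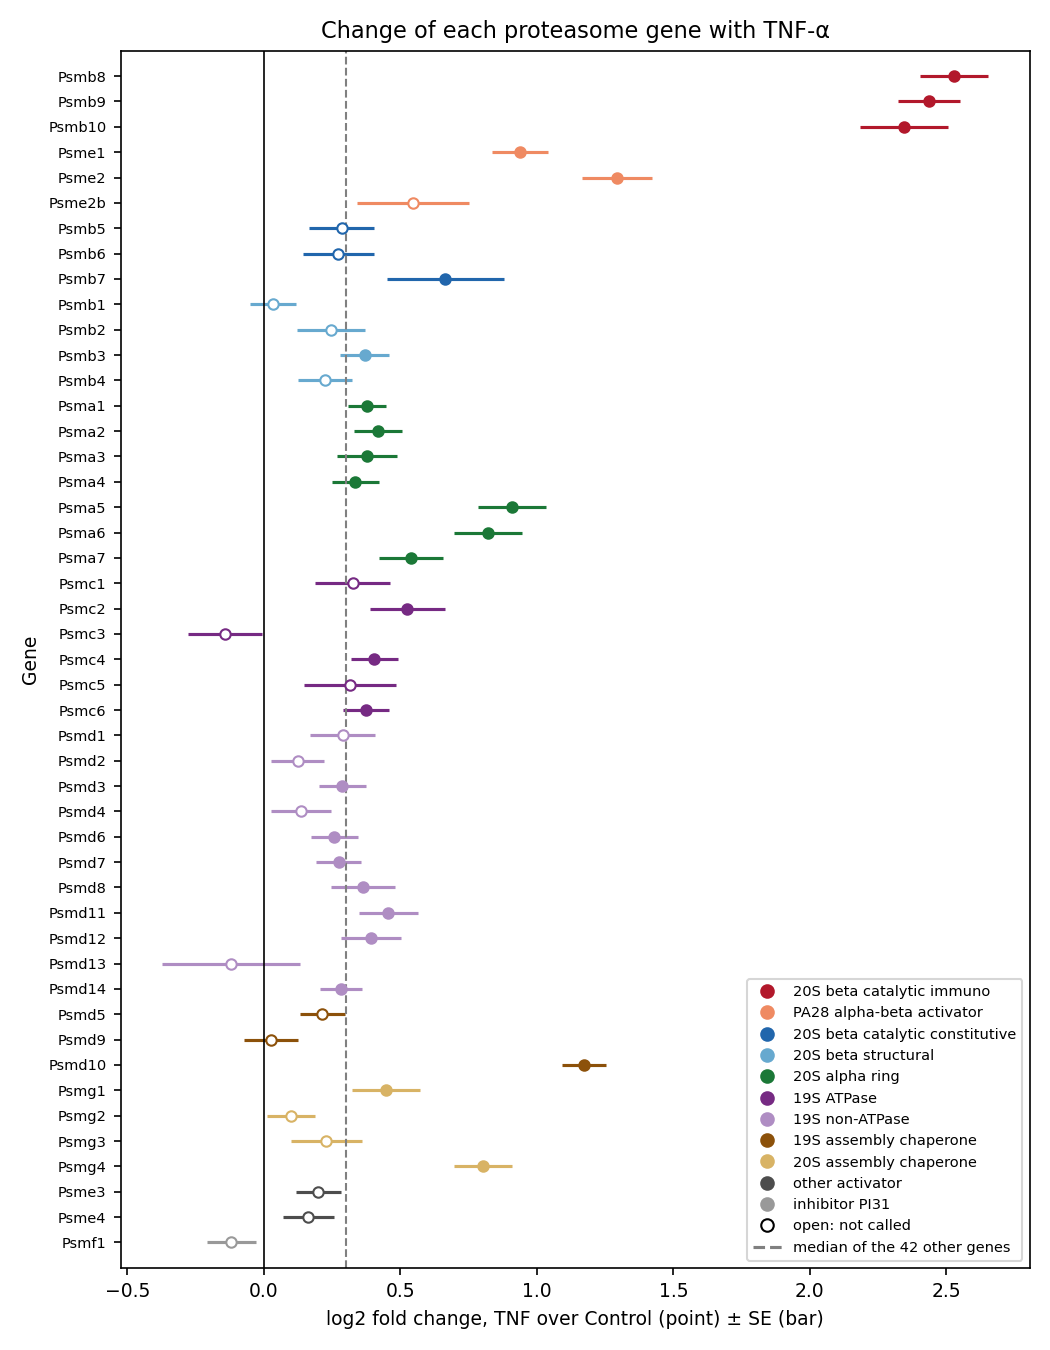
Log2 fold change, TNF over Control, of each proteasome gene (points, coloured by role) with its SE (bars); filled points were called higher at an adjusted p under 0.05 by edgeR and open points were not called. Psmb8, Psmb9 and Psmb10 lie at 2.34 to 2.53, while the median of the 42 constitutive members (dashed line) is 0.30.

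The constitutive counterparts of the 3 immunoproteasome subunits moved far less. Psmb5, β5, was at 160.5, 133.8 and 161.3 CPM in Control and at 192.7, 160.0 and 202.7 CPM in TNF. TNF 2 fell within the Control range, and Psmb5 was not called (log2 fold change 0.29 ± 0.12 (SE), adjusted p = 0.101, edgeR). Psmb6, β1, was at 163.4, 155.2 and 180.8 CPM in Control and at 212.4, 164.2 and 226.8 CPM in TNF, again with TNF 2 inside the Control range. It was not called either (0.27 ± 0.13 (SE), adjusted p = 0.143, edgeR). Without TNF 2, the library rich in 18S RNA, both were called higher, with log2 fold changes of 0.38 for Psmb5 (adjusted p = 0.0416, edgeR) and 0.40 for Psmb6 (adjusted p = 0.0247, edgeR).

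Psmb7, β2, was called higher on uneven values. It was at 292.5, 166.2 and 295.6 CPM in Control and at 410.9, 441.2 and 343.7 CPM in TNF. Control 2 stood well below the other Control libraries, and the groups did not overlap. The log2 fold change was 0.67 ± 0.21 (SE), with an adjusted p of 0.0433 by edgeR. Without Control 2 the change was 0.44 (adjusted p = 0.023, edgeR) and without both libraries numbered 2 it was 0.37 (adjusted p = 0.0177, edgeR). It was no longer called without TNF 1 (adjusted p = 0.122 by edgeR) or without TNF 2 (adjusted p = 0.123 by edgeR).

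On the TPM scale, which corrects for transcript length as well as depth and so allows levels of different genes to be compared, the make-up of the catalytic transcripts shifted. Psmb8 made up 16.3%, 17.96% and 17.1% of the summed TPM of Psmb8 and Psmb5 in Control, and 52.5%, 51.3% and 44.3% in TNF. The means were 17.1% ± 0.841 and 49.4% ± 4.46 (SD, n = 3), a difference of 32.3 percentage points (exact two-sided permutation p = 0.1). This is the smallest p that 3 libraries against 3 can give, and it was also 0.1 after adjustment over the 3 pairs.

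Psmb10 made up 25.4%, 33.5% and 26.5% of the summed TPM of Psmb10 and Psmb7 in Control, and 58.0%, 47.03% and 62.4% in TNF. The means, 28.5% ± 4.36 and 55.8% ± 7.94 (SD, n = 3), differed by 27.4 points, with the low TNF 2 still above the high Control 2 (exact permutation p = 0.1). Without both of these libraries the difference was 34.3 points. Psmb9 stayed the minor partner. Its share of Psmb9 plus Psmb6 was 2.78%, 2.98% and 2.55% in Control and 12.3%, 14.2% and 9.42% in TNF, with means of 2.77% ± 0.213 and 11.97% ± 2.40 (SD, n = 3) and the same exact permutation p of 0.1. Over all 6 catalytic genes, the 3 immunoproteasome genes held 18.1% ± 1.15 of the summed TPM in Control and 46.8% ± 3.02 in TNF (SD, n = 3). These are shares of transcripts, and protein or assembled particles were not measured.

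**Figure D3:**
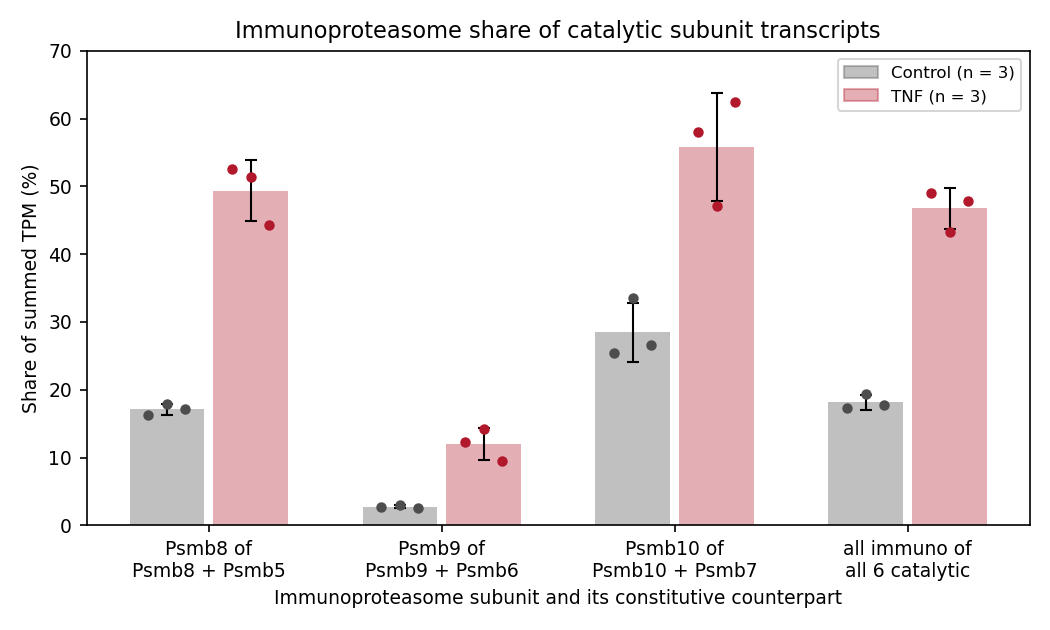
Share of each immunoproteasome gene in the summed TPM of itself and its constitutive counterpart, and of all 3 in the 6 catalytic genes (bars, mean of 3 libraries; points, libraries; error bars, SD). Every TNF point lies above every Control point of the same pair, and the Psmb9 share stays lowest, at a mean of 11.97% in TNF.

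The order of levels among the 47 genes changed with these shifts. By mean TPM, Psmb10 went from rank 22 (171 ± 30.8 TPM, SD, n = 3) in Control to rank 2 (861 ± 233) in TNF. Psmb8 went from rank 35 (76.4 ± 9.30 TPM) to rank 8 (419 ± 86.7), and Psmb9 from rank 46 (9.98 ± 0.634 TPM) to rank 39 (53.8 ± 7.89). Psme2 held rank 2 in Control (417 ± 51.2 TPM) and rank 1 in TNF (976 ± 213), and Psme1 ranks 14 and 10. Psmb7, at rank 1 in Control with 448 ± 155 TPM, was at rank 3 in TNF with 662 ± 62.3. These ranks by mean did not hold in every library. In Control 2 Psmb7 (269.2 TPM) was below Psme2 (359.2 TPM) among others, and in TNF 2 Psmb7 (665.7 TPM) was above Psmb10 (591.1 TPM). Psme2 was above Psmb10 in each of the 3 TNF libraries (1036 and 997.5 TPM, 739.7 and 591.1 TPM, 1153 and 993.2 TPM). Psmb8 was above Psmb5 (430 ± 83.5 TPM in TNF) in TNF 1 and TNF 2 and below it in TNF 3. The ratio of Psme2 to Psme1 in TPM was 1.98 ± 0.175 in Control and 2.51 ± 0.229 in TNF (SD, n = 3).

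**Figure D4:**
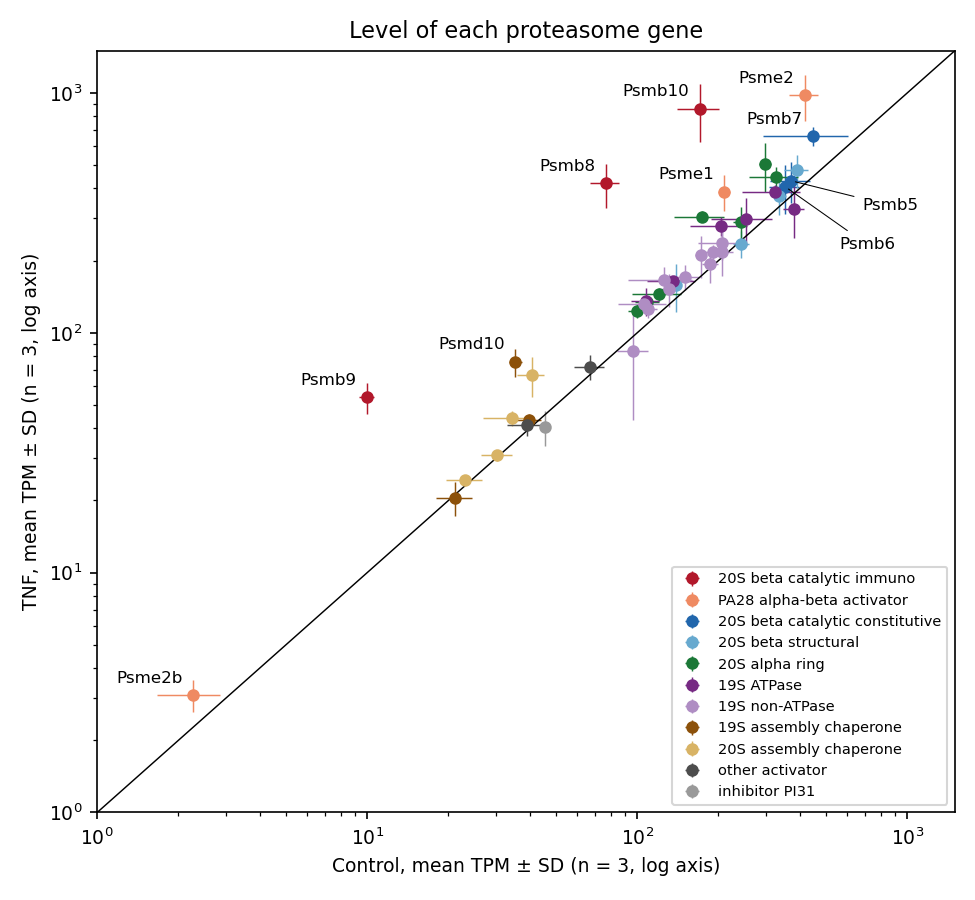
Mean TPM of each proteasome gene in Control (horizontal, log axis) and in TNF (vertical, log axis) with SDs over 3 libraries; the line marks equal levels. Psmb8, Psmb9, Psmb10, Psme2, Psme1 and Psmd10 stand furthest above the line. Psma5, Psma6, Psmg4 and Psmb7 also stand above it, by less, while Psmb5 and Psmb6 lie close to it among the abundant core genes.

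The median log2 fold change of the 42 constitutive members was 0.30. Of them, 22 (52.4%, against 16.0% of all genes) were called higher and 0 lower (against 16.4%). The count called higher moved with single libraries and with the scaling. It was 9 without TNF 1 (21.4%, against 11.0% of all genes) and 12 without Control 1 (28.6%, against 12.5% of all genes). With raw library totals only 4 of the 42 (9.52%) were called higher, which is near the 10.4% of all genes called higher at that scaling. Their median log2 fold change was then 0.22 against -0.09 for all genes. Fits on log2 TPM that include ribosomal RNA also called 4 (9.52%), against 9.40% to 10.5% of all genes. A test against a fold of 1.2 called 5 (11.9%), against 10.2% of all genes. With library totals taken without ribosomal RNA, an alternative chosen after seeing the data, 15 of 42 (35.7%) were called, against 14.3% of all genes.

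**Figure D5:**
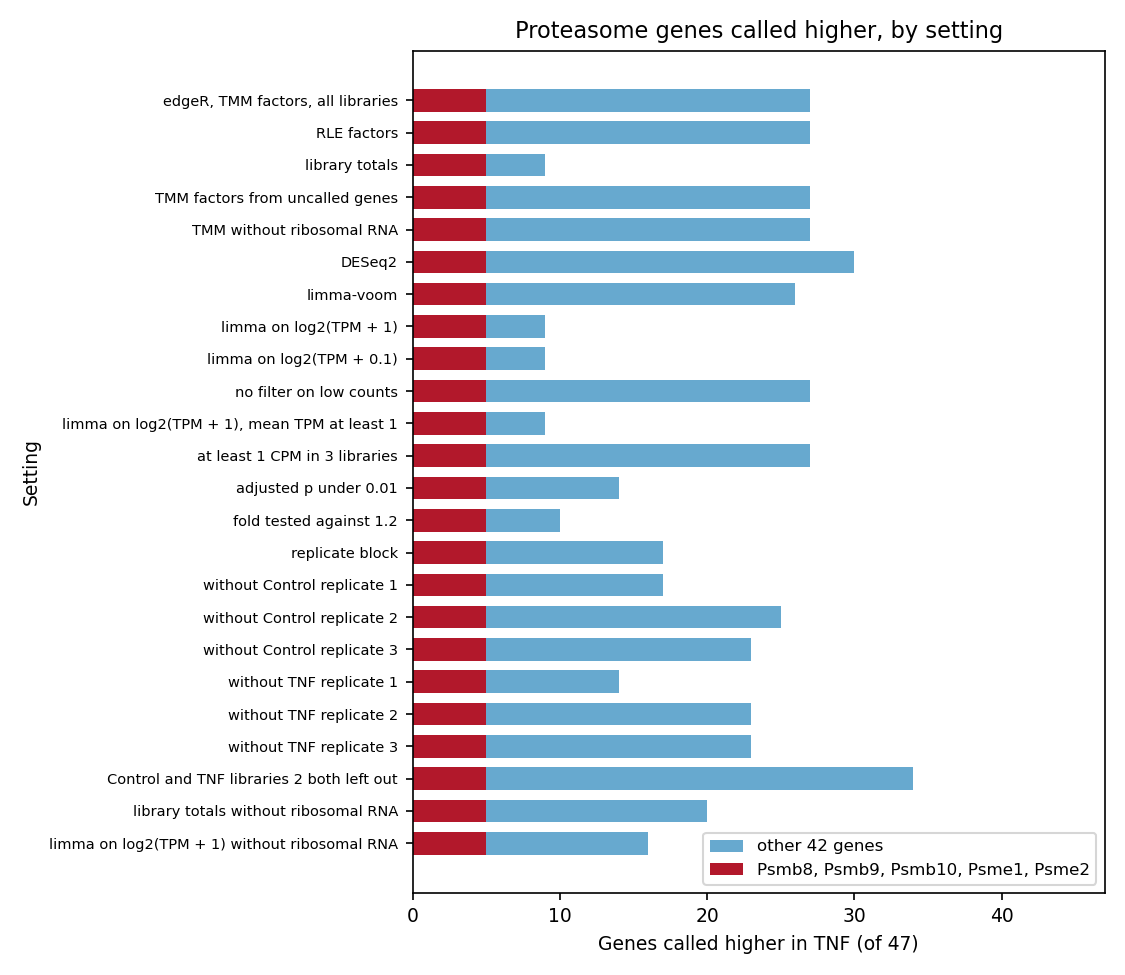
Number of the 47 proteasome genes called higher in TNF (bar length) under the test used here (top bar) and under 23 alternative settings, with the 5 immunoproteasome and PA28 genes in red and the 42 constitutive members in blue. The red part is 5 genes in every bar, while the blue part runs from 4 genes with library totals or TPM to 29 without both libraries numbered 2.

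The alpha ring, which gates the core, had 7 of 7 members called higher, against 16.0% of all genes, with log2 fold changes from 0.34 to 0.91 and a median of 0.42. Psma5 was at 113.4, 88.1 and 116.4 CPM in Control and at 199.6, 215.4 and 182.4 CPM in TNF, without overlap. It had the largest change of the ring, 0.91 ± 0.12 (SE) on the log2 scale (adjusted p = 0.000658, edgeR). Psma6 was at 146.2, 151.2 and 147.6 CPM in Control and at 270.0, 216.0 and 299.7 CPM in TNF, a log2 fold change of 0.82 ± 0.12 (SE) with an adjusted p of 0.00114 by edgeR. Psma1 changed less but with little spread, from a mean of 58.3 ± 0.642 CPM to 75.7 ± 0.952 (SD, n = 3), a log2 fold change of 0.38 (adjusted p = 0.00362, edgeR). The ring had 5 members called without TNF 1 or without Control 1: Psma3 lost its call without Control 1, TNF 1 or TNF 2, and Psma4 without Control 1, Control 3, TNF 1 or TNF 3. Psma5 and Psma6 were called in all 23 alternatives. With raw library totals they were the only members of the ring to be called. Psma1 was not called then, on TPM that include ribosomal RNA, or when tested against a fold of 1.2.

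Of the 4 beta subunits that form the ring without cutting, only Psmb3 was called (25.0%, against 16.0% of all genes). It was at 131.7, 126.0 and 139.0 CPM in Control and at 174.6, 156.3 and 181.2 CPM in TNF, so the groups did not overlap, and its log2 fold change was 0.37 ± 0.09 (SE, adjusted p = 0.0143, edgeR). The call was lost without Control 1 and without TNF 1. Psmb1, Psmb2 and Psmb4 had log2 fold changes of 0.03, 0.24 and 0.22 and were not called. Psmb2 was called without TNF 2, at 0.36 (adjusted p = 0.0364, edgeR). Over the 14 constitutive core genes, 9 were called higher, against 16.0% of all genes, with a median log2 fold change of 0.37. The count was 5 without TNF 1, 6 without Control 1 and 2 with raw library totals, against 11.0%, 12.5% and 10.4% of all genes.

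In the 19S particle, 10 of 17 base and lid members were called higher, against 16.0% of all genes, with a median log2 fold change of 0.29. Without TNF 1 the count was 2 of 17 (Psmc4 and Psmc6), a share near the 11.0% of all genes called higher then. Without Control 1 it was 4, against 12.5% of all genes. Without Control 3, TNF 2 or TNF 3 it was 6, against 14.3%, 13.4% and 14.8% of all genes. With raw library totals 0 of the 17 were called by edgeR, against 10.4% of all genes, and 2 had an unadjusted p under 0.05. Of the 6 ATPases that unfold the substrate, 3 were called. Psmc4 was at 78.5, 74.5 and 84.2 CPM in Control and at 109.5, 97.8 and 106.6 CPM in TNF, a log2 fold change of 0.40 ± 0.09 (SE, adjusted p = 0.00681, edgeR). Psmc6 went from a mean of 138 ± 9.08 CPM to 179 ± 3.91 (SD, n = 3), a log2 fold change of 0.38 (adjusted p = 0.00949, edgeR). Psmc2 had the largest change of the ring, 0.53 ± 0.14 (SE, adjusted p = 0.0185, edgeR), and lost its call without TNF 1 and without TNF 2. Psmc3, at rank 4 by TPM in Control, was at 289.4, 284.0 and 304.1 CPM in Control and at 266.0, 215.1 and 313.9 CPM in TNF. Its groups overlapped, and it was not called (log2 fold change -0.14, adjusted p = 0.457, edgeR). Without TNF 2 its log2 fold change was -0.012.

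Among the 11 non-ATPase members of the 19S particle, 7 were called higher, against 16.0% of all genes, with log2 fold changes from 0.26 to 0.46. Without TNF 1 edgeR called 0 of the 11 (against 11.0% of all genes), of which 6 were higher at an unadjusted p under 0.05. Without Control 1 it called 1 (against 12.5% of all genes). The count was 3 without Control 3 or without TNF 3 (against 14.3% and 14.8% of all genes) and 4 without TNF 2 (against 13.4%). The 4 called members not named below lost their calls in 4 to 6 of the 6 repeats that left out 1 library. Psmd11, a lid scaffold subunit, was at 138.2, 114.2 and 145.6 CPM in Control and at 187.6, 187.0 and 171.3 CPM in TNF. It changed by 0.46 ± 0.11 (SE) on the log2 scale (adjusted p = 0.0121, edgeR), and was not called without TNF 1. Psmd14, the lid enzyme that removes ubiquitin chains, changed by 0.28 ± 0.08 (SE, adjusted p = 0.0219, edgeR), and Psmd12 by 0.39 ± 0.11 (SE, adjusted p = 0.0257, edgeR). Each of these calls was lost in 3 of the 6 repeats that left out 1 library, Psmd14's without Control 1, TNF 1 or TNF 3 and Psmd12's without Control 1, TNF 1 or TNF 2. Psmd13 was the most variable member of the lid, at 67.5, 76.2 and 53.7 CPM in Control and 52.8, 41.2 and 87.5 CPM in TNF. It was not called (log2 fold change -0.12, adjusted p = 0.747, edgeR). Its log2 fold change was 0.001 without Control 2, 0.09 without TNF 2 and 0.22 without both, again with no call.

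Among the assembly chaperones 1 gene stood out in each class. Psmd10 (gankyrin), which escorts an ATPase into the 19S base, was at 25.8, 27.0 and 26.8 CPM in Control and at 59.0, 56.2 and 64.0 CPM in TNF. The groups lay far apart, and the 2.25-fold rise (log2 fold change 1.17 ± 0.08 (SE), adjusted p = 1.13e-05, edgeR) was the largest among the 42 constitutive members. The other 19S chaperones, Psmd5 and Psmd9, changed by 0.21 and 0.03 on the log2 scale and were not called. Psmg4, a chaperone of the 20S core, was at 7.91, 7.22 and 8.07 CPM in Control and at 14.0, 11.9 and 14.6 CPM in TNF, a log2 fold change of 0.80 ± 0.11 (SE, adjusted p = 0.000534, edgeR). Psmg1 changed by 0.45 ± 0.12 (SE, adjusted p = 0.0239, edgeR), a call lost without Control 1, TNF 1 or TNF 2, and Psmg2 and Psmg3 were not called. Psmd10 and Psmg4 were called in all 23 alternatives, as were Psma5 and Psma6 and the 5 immunoproteasome and PA28 genes, and no other member was.

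The remaining activators and the inhibitor were not called. Psme3, the nuclear PA28γ, was at 93.0, 85.1 and 96.5 CPM in Control and at 107.8, 100.4 and 107.1 CPM in TNF. The groups did not overlap, but the log2 fold change of 0.20 ± 0.08 (SE) missed the threshold (adjusted p = 0.0979, edgeR). Psme4, PA200, changed by 0.16 ± 0.09 (SE, adjusted p = 0.218, edgeR), and Psmf1, the inhibitor PI31, by -0.12 ± 0.09 (SE, adjusted p = 0.334, edgeR), both with overlapping groups. Relative to Psme3, Psme1 went from a TPM ratio of 3.18 ± 0.318 in Control to 5.34 ± 0.306 in TNF (SD, n = 3).

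Of 28 genes that work with the proteasome, its partners (ubiquitin genes, activating enzymes, shuttles and associated proteins), 27 were tested. Among these, 5 (18.5%) were called higher, against 16.0% of all genes, and 0 lower, against 16.4%. Their median log2 fold change was 0.10. By edgeR 2 partners were lower at an unadjusted p under 0.05, and DESeq2 and limma-voom called 0 lower. In 13 of the 27 (48.1%) every TNF library lay above every Control library, against 24.0% of all genes, and in 0 below, against 24.7%. Ubd, the ubiquitin-like modifier FAT10, had 1, 11 and 4 counts in the Control libraries and 607, 401 and 714 counts in the TNF libraries, at 10.2 to 12.5 CPM in TNF. Every listed gene had at least 10 counts in 3 libraries, so Ubd could be listed only through its TNF counts. Its place among the 5 and the 13 therefore adds no support to those counts. Adrm1, a 19S ubiquitin receptor, changed by 0.42 (adjusted p = 0.00589, edgeR) and Zfand5 by 0.35 (adjusted p = 0.0119, edgeR), and Ubqln2 and Txnl1 were the other called partners. Pomp, the chaperone that matures the core, changed by 0.28 and was not called (adjusted p = 0.077, edgeR).

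Of 13 tested genes for factors that are known to control proteasome genes, 11 were called higher (84.6%, against 16.0% of all genes) and 0 lower (against 16.4%), and by edgeR 0 were lower at an unadjusted p under 0.05, nor did DESeq2 or limma-voom call any lower. Irf1, which drives immunoproteasome genes, was at 82.3, 67.2 and 80.7 CPM in Control and at 427.6, 459.9 and 355.8 CPM in TNF, without overlap (log2 fold change 2.43, adjusted p = 3.12e-06, edgeR). Stat2 changed by 1.83 (adjusted p = 3.31e-06, edgeR). Nfe2l1, the factor known for raising constitutive subunits when proteasomes are short, changed by 0.82 (adjusted p = 0.00237, edgeR). Ngly1 and Irf8 were not called. Ngly1, the enzyme that activates Nfe2l1, was at 40.9 CPM in Control and 44.6 CPM in TNF. Whether any factor acted on a proteasome gene was not tested.

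The class I peptide pathway, which takes up the peptides, had 8 of 16 members called higher (50%, against 16.0% of all genes) and 0 lower (against 16.4%), with 0 lower at an unadjusted p under 0.05 by edgeR and 0 by DESeq2 or limma-voom. The 3 with the smallest adjusted p were Tapbpl (log2 fold change 1.76, adjusted p = 1.58e-06, edgeR), Tap2 (1.38, adjusted p = 5.09e-06, edgeR) and Tap1 (1.41, adjusted p = 1.32e-05, edgeR). Tap1 and Tap2 encode the transporter that carries peptides into the endoplasmic reticulum. Calr, the most abundant member not called, was at 954 CPM in Control and 817 CPM in TNF. The peptidases Lap3, Blmh, Thop1, Tpp2 and Npepps, which trim or destroy peptides in the cytosol, were not called. Npepps had the largest log2 fold change of them, 0.50 (adjusted p = 0.0915, edgeR), with overlapping groups. The others lay between -0.14 and 0.04.

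Several of these genes are neighbours. In the RefSeq gene order Psmb9, Tap1, Psmb8 and Tap2 follow each other in the MHC region, and all 4 were called higher. Beside them, H2-DMb1 and H2-DMa, on the Psmb9 side, were not called (log2 fold changes -0.46 and -0.36). On the Tap2 side H2-Ab1, an MHC class II gene, was called higher (1.79, adjusted p = 0.0437, edgeR). Psme1 and Psme2 stand on either side of Emc9, which was not called (-0.17), and Psme2 is followed by Rnf31 (0.82) and Irf9 (1.195), both called higher. No listed gene within 4 places of Psmb10 was called higher: Lcat and Slc12a4 were not called, and Pskh1 was called lower (-0.38). Genes in these stretches that were not listed, among them Ctrl directly beside Psmb10 and H2-Ob between Tap2 and H2-Ab1, have no value.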

How the data were processed

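Per the labels' protocols, RNA was column-purified and treated with DNase. Per the submitters' processing notes, Trim Galore, STAR, StringTie and Salmon were used with GRCm39. The settings are not given in the sources used here. The authors deposited, per library, estimated counts as whole numbers without gene names, and TPM with symbols and Ensembl IDs. Count rows were joined to TPM rows by position within a library: all 260 zeros coincided, and the median SD over libraries of log2(count/TPM), centred per library, was 0.0302, against 0.412 with rows shifted by 1. The counts are called both normalized and raw in their headers. Their totals differ between libraries, and they were used as raw counts. All 15634 genes had at least 10 counts in 3 libraries, so lower genes could not be analysed.

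The test used edgeR 4.0.16 under R 4.3.3 (the filterByExpr filter, which left 15547 genes, TMM factors, glmQLFit and glmQLFTest, two-sided, group as the only term, Benjamini-Hochberg over all tested genes), and the fit was tested on simulated data. CPM values use the TMM factors. Each SE was obtained by dividing the absolute log2 fold change by the square root of F. Shares were computed from TPM and compared by exact permutation in Python 3.11.15 with scipy 1.17.1. Transcripts were compared with blastn 2.17.0 (GENCODE M21). Alternatives were other scalings, DESeq2 1.42.0, limma 3.58.1 (voom on counts, and log2 TPM with a pseudocount of 1 or 0.1), other filters and thresholds, a replicate block and leaving out libraries.

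Members, gene lists and roles were chosen with earlier results of these data known, so the counts over lists are descriptions. Named by rule were the 5 genes, their counterparts, Psme3, Psme4 and Psmf1; in each role up to 3 called members with the smallest adjusted p and the one with the largest change; and in each other list up to 3 called genes per direction and the most abundant one not called. Psma3, Psma4, Psme2b, Psmb1, Psmb2, Psmb4, Psmc3, Psmd5, Psmd9, Psmd13, Psmg2, Psmg3, Ubqln2, Txnl1, Pomp, Irf8, Nfe2l1, the peptidases, Ptprc and the neighbouring genes were named after their values were seen. Some genes that the rule names are not reported here. The labels do not say what the replicate numbers mean, so the main test did not pair the samples. Within a group, no libraries agreed within sampling noise (chi-square per degree of freedom 18.4 to 763).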

Additional observations from a re-analysis of the deposited data

How the results depend on the processing

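The 5 immunoproteasome and PA28 genes were called higher in all 23 alternatives, and 0 members were called lower in any. The count of members called higher, 27, was 9 with library totals and 9 in each of 3 fits on log2 TPM, 14 at an adjusted p under 0.01, 10 when tested against a fold of 1.2, 17 with a replicate block, and 16 on TPM rescaled without ribosomal RNA (chosen after seeing the data). It ran from 14 to 25 when 1 library was left out (14 without TNF 1, 17 without Control 1) and was 34 without both libraries numbered 2. For the 42 constitutive members, 22 in all, the same settings gave 4, 4, 9, 5, 12 (replicate block), 11, and 9 to 20 (9 without TNF 1, 12 without Control 1). In the 3 fits on log2 TPM the 4 were 9.52%, near the 9.45%, 9.40% and 10.5% of all genes called higher there. Against a fold of 1.2 the 5 were 11.9%, near the 10.2% of all genes. Over all genes, calls higher, 2489, were 1612 with library totals, 1477 with log2(TPM + 1), 1470 with log2(TPM + 0.1), 1387 with a mean TPM of at least 1, 1587 at an adjusted p under 0.01 and 1585 against a fold of 1.2, and calls lower, 2550, were 1534 and 1630 at the last pair of settings. Library totals and TPM both include the 18S counts of TNF 2. The stricter thresholds call fewer genes by construction. The causes of the shifts with the scaling, the leave-outs and the block were not tested. Of the 27 calls, 14 held in each of the 6 repeats without 1 library, and no called value changed sign. The difference in the Psmb9 share, 9.20 points, was 11.7 points from counts not divided by length, and those of Psmb8 and Psmb10 moved by less than 1 SD. Same-numbered libraries gave correlations of deviations of -0.0125, -0.304 and -0.222. With 3 libraries per group these cannot decide whether the numbers pair samples, and the block rests on a number only. DESeq2 called 30 members higher (63.8%, against 17.8% of all genes). With 3 libraries per group, shares could not reach a p under 0.1, and depth did not limit the members, whose lowest count was 222.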
